A study of Mus musculus with 24 samples.

Results

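The genes described here are 10 genes of iron and heme handling: *Fth1*, *Ftl1*, *Tfrc*, *Slc40a1*, *Slc11a2*, *Aco1*, *Ireb2*, *Fech*, *Blvra* and *Blvrb*. They were chosen by name for their roles, with earlier results of these data known, and all 10 were found among the 55291 gene symbols of the count table. The RNA-seq experiment used growing C2C12 myoblasts, a line derived from mouse muscle, in which a subunit of a SWI/SNF chromatin remodeling complex was knocked down (KD) by shRNA. The scr control line carried a scrambled shRNA. The *Baf180* KD line (gene symbol *Pbrm1*) had less of a PBAF subunit, the *Baf250a* KD line (*Arid1a*) less of a BAF subunit and the *Brd9* KD line less of an ncBAF subunit. Each line was grown without added metal (NT), with 100 µM CuSO4 (Cu) or with 50 µM ZnSO4 (Zn) for 48 h. These 12 conditions had 2 replicates each. Every line, scr included, was a stable puromycin-selected population in the study's methods, so a KD and the history of its line cannot be told apart. The sample labels name primary myoblasts and a Lipofectamine knockdown instead, and do not say which shRNA was used.

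Iron reaches the cell bound to transferrin through the receptor *Tfrc*, passes into the cytosol through *Slc11a2*, is stored in the ferritin shell made of *Fth1* and *Ftl1* chains, and leaves the cell through ferroportin, *Slc40a1*. When iron is scarce, the iron regulatory proteins encoded by *Aco1* and *Ireb2* bind RNA hairpins called iron-responsive elements (IREs), which blocks translation of ferritin and ferroportin mRNA and protects *Tfrc* mRNA from decay. Iron also goes into heme, whose last step of synthesis is made by ferrochelatase, *Fech*, while heme breakdown by heme oxygenase gives biliverdin, the substrate of the biliverdin reductases *Blvra* and *Blvrb*.

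The IREs are shown because they are the control elements through which several of these mRNAs respond to iron. The first-numbered GENCODE transcript of each of the 10 members was searched for a strict form of the element. This form is an unpaired C, 5 paired bases, a loop of CAGTGN and the 5 pairing bases. A match was found in 4 members, *Fth1*, *Ftl1*, *Slc40a1* and *Tfrc*. Over all protein-coding genes, 294 of 21877 (1.34%) had a match in any protein-coding transcript, a wider search than that of the members. Ferritin and ferroportin held 1 match each in the 5′ UTR, and *Tfrc* held 4 in the 3′ UTR of its last exon, exon 19. The sequences are from GRCm38 with the GENCODE M21 annotation, 5′ to 3′ on the strand of the gene, and capitals mark the loop.
*Fth1*, 5′ UTR, exon 1, chr19:9982732-9982761, plus strand: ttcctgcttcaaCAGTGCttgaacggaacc
*Ftl1*, 5′ UTR, exon 1, chr7:45459778-45459807, minus strand: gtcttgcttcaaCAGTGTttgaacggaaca
*Slc40a1*, 5′ UTR, exon 1, chr1:45925464-45925493, minus strand: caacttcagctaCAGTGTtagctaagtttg
*Tfrc* site 1, chr16:32631219-32631248, plus strand: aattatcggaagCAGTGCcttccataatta
*Tfrc* site 2, chr16:32631598-32631627: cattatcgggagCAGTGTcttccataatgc
*Tfrc* site 3, chr16:32631663-32631692: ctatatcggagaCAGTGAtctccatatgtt
*Tfrc* site 4, chr16:32631710-32631739: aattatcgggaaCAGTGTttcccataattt
IREs of other forms, such as those with a bulged stem, are missed by this pattern, and other transcripts of the members were not covered. The 6 members without a match are thus not shown to lack the element. A match describes the letters of the transcript, and binding to it was not measured here.

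Total counts ranged from 12719173 to 75179394 per library except in *Baf250a* KD Zn replicate 2, which had 495778. Levels are given as CPM, the count set against the library's total after TMM scaling over the 24 libraries, for replicate 1 and replicate 2 in this order. Differences are log2 fold changes ± SE from edgeR's quasi-likelihood test, and a gene is said to have risen, fallen or been called where its Benjamini-Hochberg adjusted p over all genes tested was under 0.05. All 10 members passed the filter on low counts in each of the 22 comparisons. Libraries differed in how their counts followed the GC content of genes: the slope of log2 CPM per 10 percentage points of GC ran from −0.35 to 0.33 among scr libraries and from −0.22 to 0.31 among KD libraries. The members span this range of GC content, from 39.0% in *Ireb2* and 39.8% in *Tfrc* to 57.1% in *Blvrb* and 58.1% in *Ftl1*. Summed CPM of 7 myoblast markers were higher in scr (3056 to 4213) than in KD libraries (1620.4 to 2571), but the markers did not all move together: in each untreated KD line 5 of the 7 were lower than in scr and 1 was higher, which was *Pax7* in *Baf180* KD (0.92, adjusted p = 0.033) and *Brd9* KD cells (1.41, adjusted p = 0.00845) and *Myod1* in *Baf250a* KD cells (0.35, adjusted p = 0.0128). Summed CPM of 7 genes of differentiated muscle ran from 70.8 to 106 in scr, from 123 to 176 in *Baf180* KD, from 60.6 to 77.8 in *Baf250a* KD and from 33.2 to 39.9 in *Brd9* KD libraries, so that the *Baf180* KD libraries lay above and the *Brd9* KD libraries below those of scr. These genes did not all move together. In untreated *Baf180* KD cells *Myog* (2.36), *Myh3* (2.76), *Myh1* (2.70) and *Mymk* (1.36) were called higher than in scr. *Acta1* (0.01), *Ckm* (0.37) and *Tnnt3* (−0.05) were not called. In untreated *Baf250a* KD cells *Myog* (0.57) and *Myh3* (0.64) were called higher, *Acta1* (−0.86) and *Ckm* (−0.99) lower, and the others were not called. Summed CPM of 6 erythroid genes, which mark the main heme-making cells, stayed at or below 0.866 in all lines. Those of 5 osteoblast genes ran from 102 to 164, of 5 adipocyte genes from 13.4 to 24.7, of 5 macrophage genes up to 6.22 and of 4 endothelial genes from 0 to 5.57, with the highest endothelial sums in scr libraries. A single gene made up most of the osteoblast, adipocyte and macrophage sums. In *Baf180* KD Cu replicate 1 *Runx2* gave 102.3 of 102.5 CPM, *Pparg* 20.9 of 21.0 and *Cd68* 4.19 of 4.38. In scr NT replicate 2 *Kdr* gave 5.48 of the endothelial 5.57. The part of these cell states in the differences between lines was not tested. In these bulk samples fewer cells of a type and less RNA per cell cannot be told apart. The targeted genes were lower in their own untreated KD line than in scr: *Pbrm1* at 70.7 ± 6.95 CPM against 121 ± 30.3, *Arid1a* at 99.4 ± 0.956 against 287 ± 6.22 and *Brd9* at 17.4 ± 0.615 against 29.8 ± 3.68 (mean ± SD, n = 2).

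Transcripts of the ferritin chains far exceeded those of the other members when set per length, here that of the first-numbered GENCODE transcript of each gene. In untreated scr cells *Ftl1* stood at 1279 ± 167 CPM per kb of transcript and *Fth1* at 1134 ± 98.2 (mean ± SD, n = 2). *Fech* followed with 54.2 ± 1.38, then *Tfrc* with 37.5 ± 4.49, *Slc11a2* with 37.2 ± 4.44 and *Aco1* with 27.7 ± 3.47. *Blvra* (15.01 ± 2.27), *Ireb2* (10.9 ± 2.08) and *Blvrb* (9.92 ± 1.05) were lower, and *Slc40a1* was lowest at 4.71 ± 0.235. *Tfrc* and *Slc11a2* did not differ beyond their spread, nor did *Ireb2* and *Blvrb*. The order depends on the transcript: with the longest protein-coding transcript, *Fth1* stood at 705 ± 61.04, *Slc11a2* at 25.5 ± 3.04 and *Fech* at 16.998 ± 0.431, the last then below *Tfrc*, *Aco1* and *Slc11a2*, while the other 7 members kept their values. Over the 24 libraries the exporter *Slc40a1* varied most, with a highest level 5.56 times the lowest, followed by *Blvrb* (3.80 times). *Slc11a2* (1.46 times) and *Aco1* (1.52 times) varied least.

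**Figure D1:**
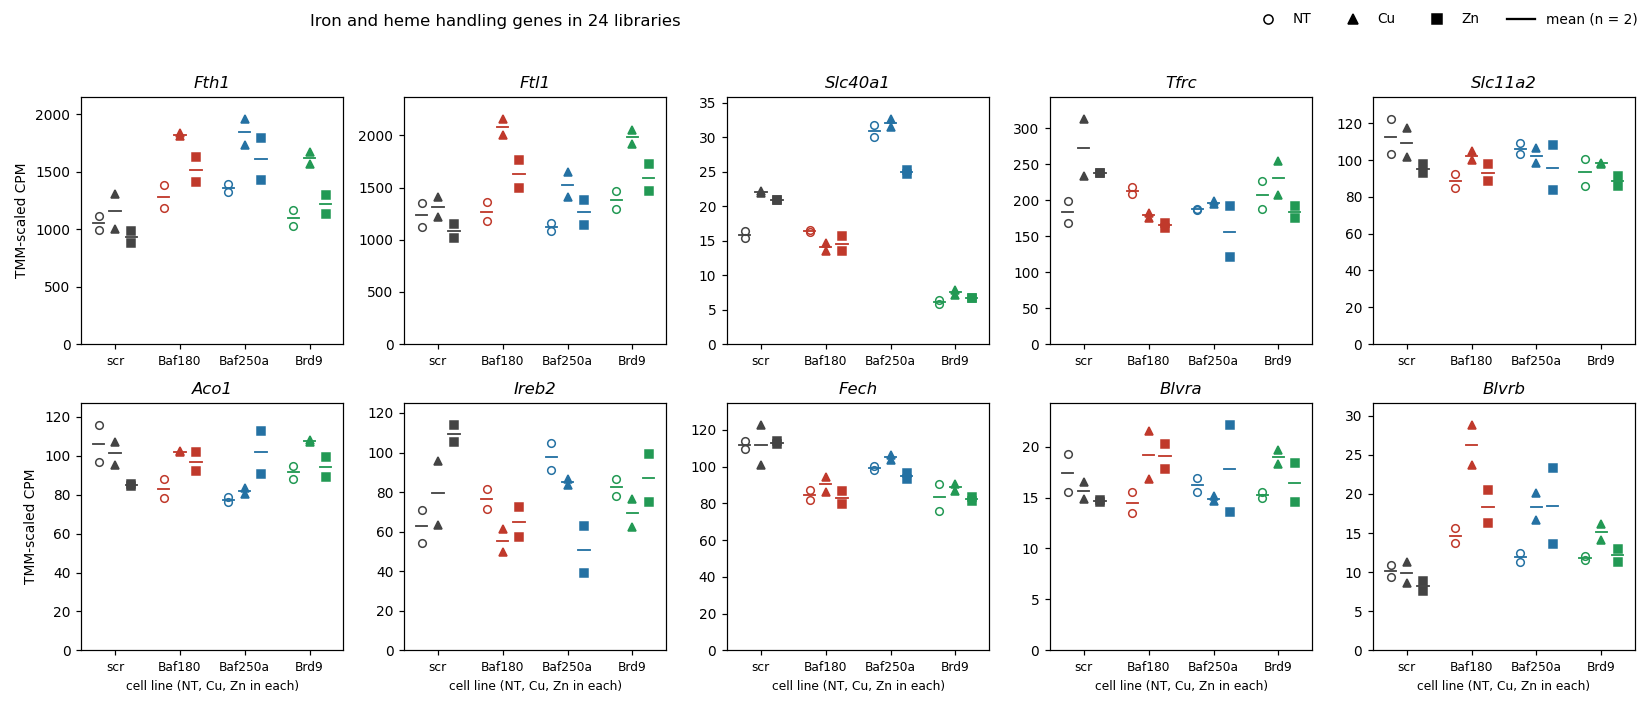
TMM-scaled CPM (linear axes from 0) of the 10 genes in each of the 24 libraries, by cell line, with open circles for NT, triangles for Cu, squares for Zn and a bar for the mean of 2 replicates. *Slc40a1* separates *Brd9* KD (5.87 to 7.91) and *Baf250a* KD libraries (24.7 to 32.6) from the others, while *Baf180* KD and scr libraries overlap. *Blvrb* lies above the scr libraries in every library of the 3 KD lines, at the closest with 11.30 (*Baf250a* KD NT) against 11.26 (scr Cu).

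Copper raised the transcripts of both ferritin chains and of *Blvrb*. Averaged over the 4 lines, these 3 of the 10 members were called, all higher, against 7.86% of 16524 genes called in either direction and 4.67% called higher. *Fth1*, the heavy chain that oxidizes iron on entry, rose by 0.41 ± 0.0678 (1.33-fold, adjusted p = 0.000656). *Ftl1*, the light chain that helps the iron core to form, rose by 0.44 ± 0.0667 (1.36-fold, adjusted p = 0.000232). *Blvrb*, which also reduces flavins, rose by 0.44 ± 0.084 (1.35-fold, adjusted p = 0.00249). All 3 calls were kept in each of the 23 alternatives, including a correction for GC content and length (0.40, 0.42 and 0.41). The median of the 10 members was 0.14, against 0.01 over all genes tested.

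The ferritin rise was seen in both replicates of each KD line. In *Baf180* KD cells *Fth1* read 1385 and 1181 CPM without metal and 1832 and 1807 with Cu, and *Ftl1* read 1362 and 1179 against 2155 and 2008. In *Baf250a* KD cells *Fth1* read 1392 and 1323 against 1728 and 1955, and *Ftl1* 1160.4 and 1080.5 against 1406 and 1647. In *Brd9* KD cells *Fth1* read 1166 and 1027 against 1569.9 and 1668, and *Ftl1* 1469 and 1292 against 1921 and 2054. For both chains both Cu libraries lay above both untreated ones in these 3 lines. In scr cells the groups overlapped, with *Fth1* at 989 and 1118 CPM without metal against 1308 and 1003, and *Ftl1* at 1123 and 1352 against 1412 and 1213.

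Within single lines 2 libraries were set against 2. In *Baf180* KD cells 5 of the 10 members were called with Cu, against 13.8% of 15241 genes: *Blvrb* rose by 0.80 ± 0.141, *Ftl1* by 0.68 ± 0.112 and *Fth1* by 0.47 ± 0.108, while *Ireb2* fell by 0.50 (SE 0.142) and *Tfrc* by 0.29 (SE 0.0801). Their adjusted p were 0.0108, 0.00928, 0.0228, 0.0434 and 0.0419. The calls of *Fth1*, *Ftl1* and *Blvrb* were lost without *Baf180* KD Cu replicate 1 (adjusted p = 0.121, 0.0731 and 0.0828) and without *Baf180* KD NT replicate 2 (0.187, 0.0894 and 0.101), the directions staying. *Ireb2* was lost without the same libraries (0.269 and 0.286), and *Tfrc* without any of the 4 (0.0614 to 0.293).

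In *Baf250a* KD cells 1 of 10 members was called with Cu, against 1.27% of 14706 genes: *Blvrb*, from 12.5 and 11.3 CPM to 16.7 and 20.1, rose by 0.62 ± 0.142 (adjusted p = 0.0218), which was lost without *Baf250a* KD Cu replicate 2 (0.516) or NT replicate 2 (0.22) and with DESeq2 (1.00). *Fth1* (0.44 ± 0.122) and *Ftl1* (0.45 ± 0.12) had adjusted p of 0.0888 and 0.0724. In *Brd9* KD cells edgeR called 0 of 10 members, against 0.274% of 14978 genes, with 4 members at an unadjusted p under 0.05 and 2 called by DESeq2. *Fth1* (0.51 ± 0.0873, adjusted p = 0.0586) and *Ftl1* (0.47 ± 0.0932, adjusted p = 0.0886) had both Cu libraries above both untreated ones there. In scr cells edgeR called 0 of 10, against 0.0333% of 15002 genes, with 2 at an unadjusted p under 0.05 and 0 called by DESeq2. There *Fth1* was at 0.15 ± 0.128 and *Ftl1* at 0.10 ± 0.118, with 95% intervals of −0.10 to 0.40 and −0.13 to 0.33.

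**Figure D2:**
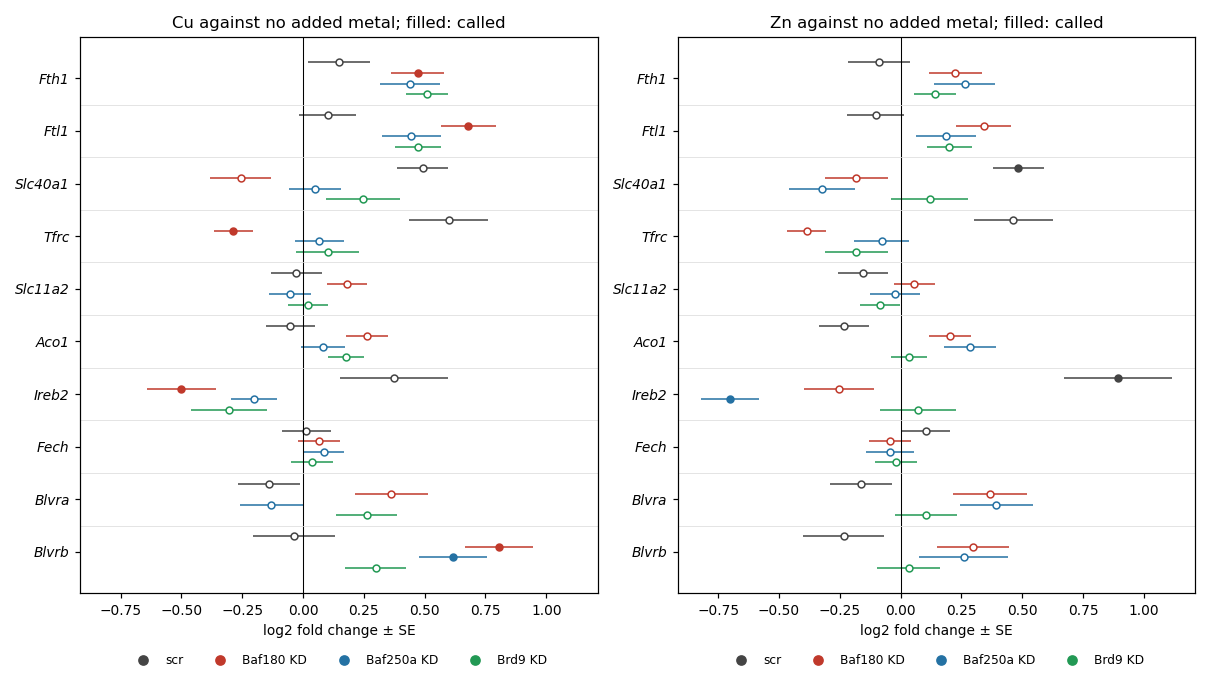
Log2 fold change ± SE of each gene with Cu (left) and Zn (right) against no added metal in the same line, 2 libraries against 2, with filled points for an adjusted p under 0.05. With Cu the ferritin chains lie between 0.44 and 0.68 in the 3 KD lines and at 0.15 and 0.10 in scr cells, and *Ireb2* lies on opposite sides of 0 in scr (0.37) and *Baf180* KD cells (−0.50).

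With Zn no member was called over the 4 lines by edgeR (0 of 10, against 0.284% of 16524 genes, with 0 at an unadjusted p under 0.05 and 0 called by DESeq2). The median of the members was 0.04. In scr cells 2 of 10 were called, against 17.6% of 15002 genes. *Ireb2* read 71.1 and 54.1 CPM without metal and 105 and 114 with Zn, a rise of 0.89 ± 0.222 (adjusted p = 0.0366). *Slc40a1* read 16.4 and 15.3 against 20.9 and 20.9, a rise of 0.48 ± 0.106 (adjusted p = 0.0295). Neither call was kept after GC and length correction, where *Ireb2* was at −0.06 (adjusted p = 0.735) and *Slc40a1* at 0.05 (0.843), nor without scr NT replicate 2 (0.26 and 0.188), scr Zn replicate 1 (0.131 and 0.162) or scr Zn replicate 2 (0.206 and 0.23).

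In *Baf250a* KD cells 1 of 10 members was called with Zn, against 15.9% of 14706 genes. *Ireb2* read 91.2 and 105 CPM without metal and 62.8 and 38.9 with Zn, a fall of 0.70 (SE 0.118, adjusted p = 0.000258). It was at −0.65 (adjusted p = 4.05e-05) without the shallow Zn replicate 2, in which *Ireb2* had 20 counts, at −1.31 (0.0143) without Zn replicate 1, and at −0.08 (0.671) after GC and length correction. In *Baf180* and *Brd9* KD cells edgeR called 0 of 10 with Zn, against 0.0197% of 15241 and 0.0334% of 14978 genes, with 4 and 0 members at an unadjusted p under 0.05 and 1 and 0 called by DESeq2.

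Several members moved in the order of their GC content in these within-line comparisons. With Zn in scr cells the 4 members of lowest GC content (*Ireb2*, *Tfrc*, *Slc40a1* and *Fech*) had log2 fold changes from 0.10 to 0.89 and the other 6 from −0.23 to −0.09. With Cu in *Baf180* KD cells the order ran the other way, from −0.50 for *Ireb2* to 0.80 for *Blvrb*. Over all genes tested, Spearman's rho between log2 fold change and GC content was −0.69 in the former and 0.51 in the latter comparison, given as a description across genes of the same libraries. With the correction the fall of *Ireb2* with Cu in *Baf180* KD cells was −0.01 (adjusted p = 0.952) and that of *Tfrc* was 0.17 (0.399), while *Ftl1* and *Blvrb* stayed called at 0.54 and 0.66 (adjusted p = 0.0157 for both) and *Fth1* was at 0.37 (0.0535). The part of GC content in these values beyond that correction was not tested.

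**Figure D3:**
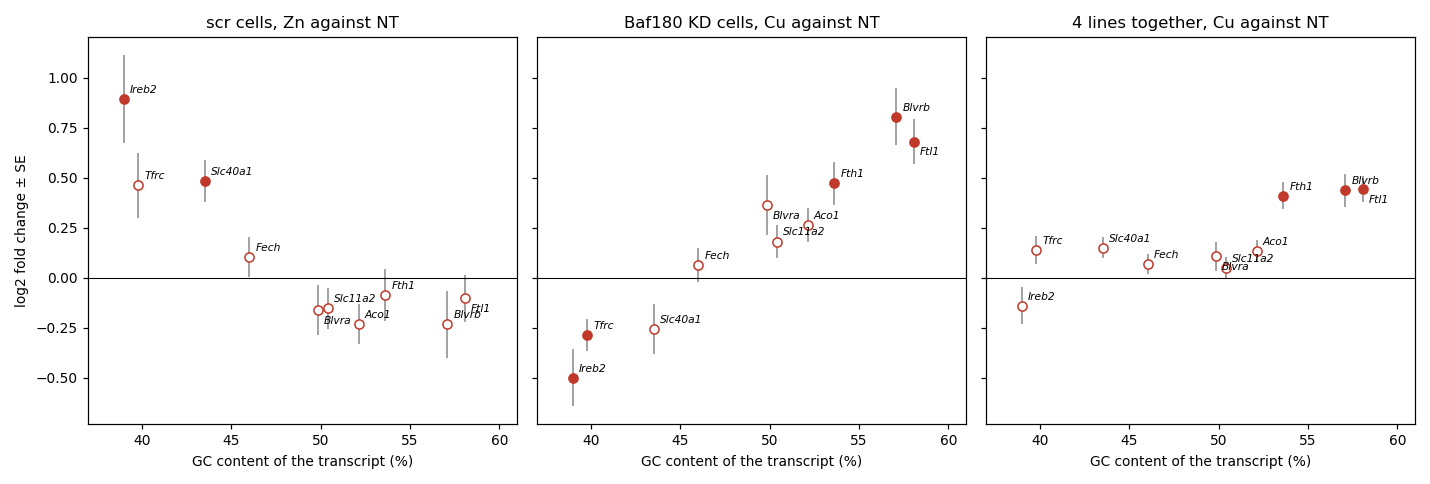
Log2 fold change ± SE of the 10 genes against the GC content of their longest protein-coding transcript (%), for Zn in scr cells, Cu in *Baf180* KD cells and Cu averaged over the 4 lines, with filled points for called genes. The values fall with GC content in the left panel and rise with it in the middle panel, and in the right panel *Fth1*, *Ftl1* and *Blvrb* stand between 0.41 and 0.44.

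Between the lines, the exporter and *Blvrb* gave the largest differences over the 3 treatments. Against scr, over the 3 treatments (6 libraries against 6), 8 of 10 members were called in *Baf180* KD, 6 in *Baf250a* KD and 6 in *Brd9* KD cells, against 49.5%, 59.9% and 37.7% of 16524 genes. These shares are near those of all genes in *Baf250a* KD cells and the 3 comparisons share the scr libraries. In untreated cells alone (2 against 2) 4, 4 and 2 members were called, against 41%, 57.8% and 29.2% of the genes tested. Medians of the members stayed within −0.11 and 0.06 in all 6 comparisons, since rises and falls were both present.

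*Slc40a1*, the iron exporter, gave the largest difference among the members. Its level ran from 15.3 to 22.2 CPM in scr libraries (median 20.9), from 24.7 to 32.6 in *Baf250a* KD (median 30.8), from 13.5 to 16.6 in *Baf180* KD (median 15.1) and from 5.87 to 7.91 in *Brd9* KD libraries (median 6.68). The *Baf250a* KD and *Brd9* KD libraries thus lay outside the scr range on opposite sides, and the *Baf180* KD libraries overlapped its lower end. *Slc40a1* over the 3 treatments was lower in *Brd9* KD than in scr cells by 1.52 (SE 0.0631, 0.348-fold, adjusted p = 4.87e-14) and higher in *Baf250a* KD cells by 0.58 ± 0.0602 (adjusted p = 3.01e-08). In untreated cells the differences were −1.36 ± 0.163 (adjusted p = 0.001) and 0.96 ± 0.125 (adjusted p = 3.04e-05), and all 4 calls were kept in every alternative. In *Baf180* KD cells it was lower by 0.37 over the 3 treatments (SE 0.0579, adjusted p = 1.58e-05), but in untreated cells the difference was 0.07 ± 0.142 (adjusted p = 0.742). The response of *Slc40a1* to metal differed between these lines: with Cu it was 0.49 ± 0.107 in scr (adjusted p = 0.406) and −0.26 ± 0.126 in *Baf180* KD cells (adjusted p = 0.198), neither called, with a difference of −0.69 ± 0.142 (adjusted p = 0.00901) that was at −0.34 (0.346) after GC and length correction.

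**Figure D4:**
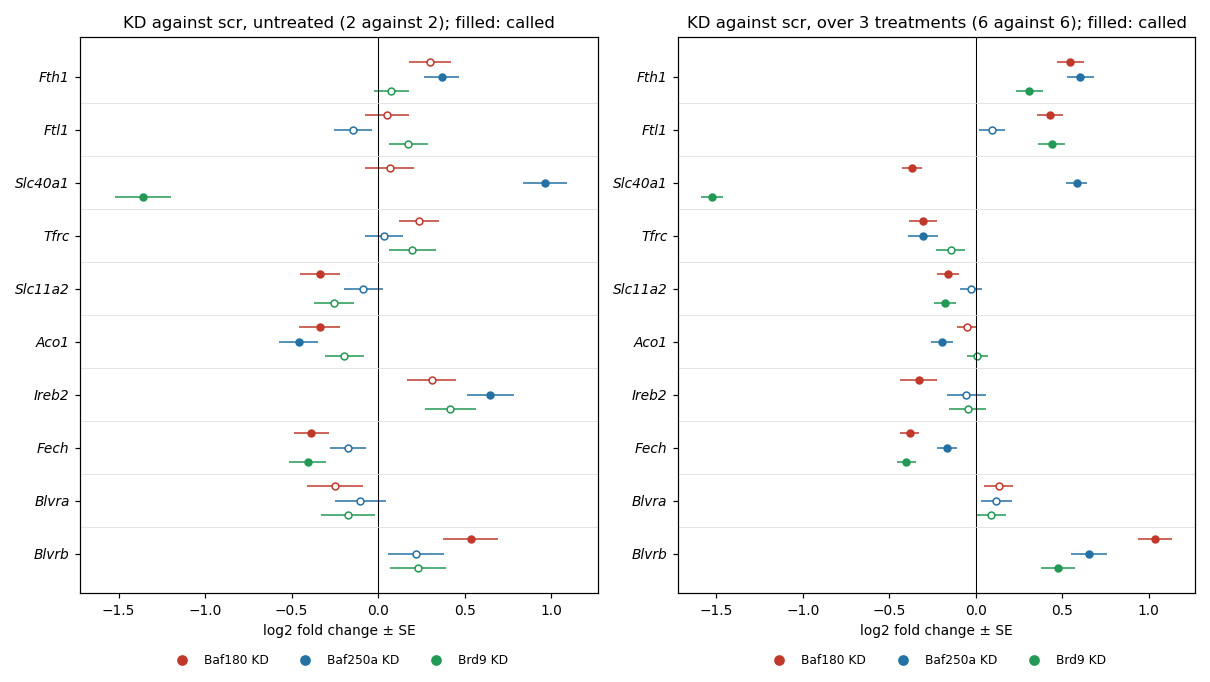
Log2 fold change ± SE of each gene in a KD line against scr, untreated (left, 2 libraries against 2) and averaged over 3 treatments (right, 6 against 6), with filled points for called genes. *Slc40a1* is at −1.52 in *Brd9* KD and 0.58 in *Baf250a* KD cells on the right, and *Blvrb* is at 1.04, 0.66 and 0.48 in *Baf180*, *Baf250a* and *Brd9* KD cells.

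The ferritin heavy chain was higher than in scr cells in all 3 KD lines over the 3 treatments. *Fth1* ran from 882 to 1308 CPM in scr (median 996), from 1181 to 1832 in *Baf180* KD (median 1517), from 1323 to 1955 in *Baf250a* KD (median 1579) and from 1027 to 1668 in *Brd9* KD libraries (median 1232). The *Baf250a* KD libraries all lay above the scr range, and the others overlapped it. The differences were 0.55 ± 0.0784 in *Baf180* KD (adjusted p = 5.03e-06), 0.60 ± 0.0789 in *Baf250a* KD (adjusted p = 9.72e-07) and 0.31 ± 0.0783 in *Brd9* KD cells (adjusted p = 0.00344), the last at 0.28 (0.0553) after GC and length correction. In untreated cells only the *Baf250a* KD line was called for *Fth1* by edgeR (0.37 ± 0.101, adjusted p = 0.00766), and the call was lost without *Baf250a* KD NT replicate 1 (0.0759). *Ftl1* was higher over the 3 treatments in *Baf180* KD (0.43 ± 0.077, adjusted p = 7.81e-05) and *Brd9* KD cells (0.44 ± 0.077, adjusted p = 0.000105), and stood at 0.09 ± 0.0775 in *Baf250a* KD cells (adjusted p = 0.312). These averages include the Cu libraries, in which ferritin was higher in the KD lines.

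The balance of the chains therefore differed between lines. The ratio of *Fth1* to *Ftl1* counts ran from 0.826 to 0.926 in scr libraries (median 0.861), from 0.850 to 1.02 in *Baf180* KD (median 0.932), from 1.19 to 1.30 in *Baf250a* KD (median 1.23) and from 0.752 to 0.817 in *Brd9* KD libraries (median 0.794). All 6 *Baf250a* KD libraries, the shallow one included, had more *Fth1* than *Ftl1* counts, and all 6 scr and all 6 *Brd9* KD libraries had fewer. The ratio is a description without a test. Ferritin genes have processed pseudogenes, of which *Ftl1-ps1* had the highest level, from 1.56 to 6.49 CPM over the 24 libraries. Because uniquely mapped reads were counted, reads shared with these copies could be missing from the ferritin counts.

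**Figure D5:**
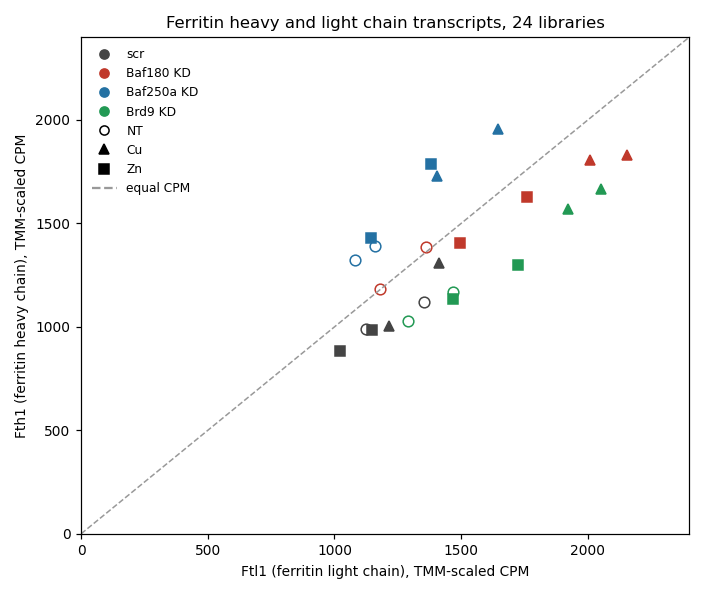
*Fth1* against *Ftl1* in TMM-scaled CPM (linear axes from 0) for the 24 libraries, colored by line with symbols for treatment, and a dashed line at equal CPM. The 6 *Baf250a* KD libraries lie above the line with ratios from 1.19 to 1.30, and the 6 *Brd9* KD libraries lie below it with ratios from 0.752 to 0.817.

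*Tfrc*, the receptor for transferrin-bound iron, ran from 168 to 313 CPM in scr libraries (median 236), from 161 to 218 in *Baf180* KD (median 179), from 121 to 199 in *Baf250a* KD (median 190.3) and from 176 to 255 in *Brd9* KD libraries (median 199.8), so that all groups overlapped. Over the 3 treatments it was lower by 0.31 in *Baf180* KD (SE 0.0826, adjusted p = 0.00391) and by 0.30 in *Baf250a* KD cells (SE 0.0852, adjusted p = 0.00411), and at −0.14 ± 0.0825 in *Brd9* KD cells (adjusted p = 0.182). In untreated cells none of the 3 lines was called for *Tfrc* (0.24 ± 0.114, 0.03 ± 0.11 and 0.20 ± 0.134), and after GC and length correction these became −0.40, −0.71 and −0.46, each called (adjusted p = 0.00437, 8.69e-06 and 0.0016). The direction in untreated cells thus turned with that correction, while the differences over the 3 treatments kept theirs (−0.37, −0.46 and −0.35). With Cu *Tfrc* read 234 and 313 CPM in scr cells against 199 and 168 without metal, which was not called (0.60 ± 0.163, adjusted p = 0.447). The Cu response in *Baf180* KD minus that in scr cells was −0.83 ± 0.202 (adjusted p = 0.0149), and −0.18 (0.601) with the correction.

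*Slc11a2* (chr15:100387898-100425072, minus strand), the transporter that moves iron out of endosomes, ran from 93.0 to 122 CPM in scr and from 83.6 to 109 in KD libraries. Over the 3 treatments it was lower by 0.16 in *Baf180* KD (SE 0.0619, adjusted p = 0.0371) and by 0.18 in *Brd9* KD cells (SE 0.062, adjusted p = 0.0287). These small differences were lost when 8 and 7 of the 12 libraries, respectively, were left out in turn, the adjusted p then running up to 0.148 and 0.121. After GC and length correction they were larger, at −0.34 (adjusted p = 3.46e-06) and −0.27 (0.000135). In untreated *Baf180* KD cells it was lower by 0.34 (SE 0.114, adjusted p = 0.0342), which was lost without *Baf180* KD NT replicate 1 (0.0872) or 2 (0.197) or scr NT replicate 2 (0.144). Neither metal gave a call for *Slc11a2* in any line.

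Before correction for GC content and length, transcripts of the iron regulatory proteins lay on opposite sides of scr in untreated *Baf250a* KD cells. After it both were lower there, *Aco1* at −0.51 (adjusted p = 0.000161) and *Ireb2* at −0.21 (0.0283). In untreated *Baf180* KD cells the corrected *Aco1* value was −0.39 (0.00583). *Aco1* (chr4:40143081-40198338, plus strand), which is a cytosolic aconitase when it holds an iron-sulfur cluster, read 96.8 and 116 CPM in untreated scr cells, 88.2 and 78.1 in *Baf180* KD, 76.1 and 78.6 in *Baf250a* KD and 95.0 and 88.3 in *Brd9* KD cells. It was lower by 0.46 in *Baf250a* KD (SE 0.113, adjusted p = 0.00389) and by 0.34 in *Baf180* KD cells (SE 0.118, adjusted p = 0.0375). The former call was lost without *Baf250a* KD NT replicate 1 (0.0544), the latter without *Baf180* KD NT replicate 1 (0.0734) or 2 (0.233) or scr NT replicate 2 (0.16). The *Baf250a* KD difference over the 3 treatments was −0.20 ± 0.0619 (adjusted p = 0.00963), and without *Baf250a* KD Zn replicate 1 it was −0.12 (0.234).

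*Ireb2* (chr9:54863789-54912530, plus strand), which is degraded when iron is plentiful and so is controlled mainly as a protein, read 71.1 and 54.1 CPM in untreated scr cells, 71.6 and 81.4 in *Baf180* KD, 91.2 and 105 in *Baf250a* KD and 78.2 and 86.8 in *Brd9* KD cells. It was higher by 0.65 ± 0.135 in *Baf250a* KD cells (adjusted p = 0.00122), but the sign turned after GC and length correction (−0.21, adjusted p = 0.0283). Over the 3 treatments it was lower by 0.33 in *Baf180* KD cells (SE 0.107, adjusted p = 0.0142). That call was kept with the correction (−0.42, adjusted p = 4.33e-08) and lost without *Baf180* KD Cu replicate 1 (0.0504), *Baf180* KD Zn replicate 1 (0.0528), scr Cu replicate 2 (0.0776) or scr NT replicate 1 (0.0575). *Ireb2* has the lowest GC content of the members and its untreated and Zn values depended most on that correction.

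On the heme side, *Fech* was lower and *Blvrb* higher in the KD lines. *Fech* ran from 101 to 122 CPM in scr libraries (median 113), from 79.4 to 94.4 in *Baf180* KD (median 86.6), from 93.3 to 107 in *Baf250a* KD (median 99.0) and from 76.0 to 90.5 in *Brd9* KD libraries (median 85.3). The *Baf180* and *Brd9* KD libraries lay below the scr range, and the *Baf250a* KD libraries overlapped it. The falls over the 3 treatments were 0.38 (SE 0.0559, adjusted p = 6.48e-06), 0.40 (SE 0.0561, adjusted p = 6.43e-06) and 0.17 (SE 0.0584, adjusted p = 0.0179) in *Baf180*, *Brd9* and *Baf250a* KD cells. In untreated cells *Fech* was lower by 0.39 in *Baf180* KD (SE 0.103, adjusted p = 0.0107) and by 0.41 in *Brd9* KD cells (SE 0.107, adjusted p = 0.0245), and these calls were lost without KD replicate 1 (0.0564 and 0.0568) or 2 (0.11 and 0.223). Over the 3 treatments the *Baf250a* KD call was lost without *Baf250a* KD Zn replicate 1 (0.0723) or scr Cu replicate 1 (0.0712), and the falls in *Baf180*, *Brd9* and *Baf250a* KD cells were larger after GC and length correction (−0.54, −0.53 and −0.42). Neither metal gave a call for *Fech* in any line.

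*Blvrb* (chr7:27447978-27466144, plus strand) ran from 7.58 to 11.3 CPM in scr libraries (median 9.14), from 13.7 to 28.8 in *Baf180* KD (median 18.4), from 11.3 to 23.3 in *Baf250a* KD (median 15.1) and from 11.3 to 16.1 in *Brd9* KD libraries (median 12.5). Every KD library lay above every scr library, but the margin was narrow. *Baf250a* KD NT replicate 2 read 11.30 and *Brd9* KD Zn replicate 2 read 11.33 CPM, against 11.26 in scr Cu replicate 1. The highest *Baf250a* KD value came from the shallow Zn replicate 2, in which *Blvrb* had 12 counts. Over the 3 treatments it was higher by 1.04 ± 0.0968 in *Baf180* KD (2.05-fold, adjusted p = 9.79e-09), by 0.66 ± 0.106 in *Baf250a* KD (adjusted p = 1.6e-05) and by 0.48 ± 0.0992 in *Brd9* KD cells (adjusted p = 0.000638), and the 3 calls were kept in every alternative. In untreated cells the differences were 0.53 ± 0.16, 0.22 ± 0.16 and 0.23 ± 0.161, of which the first was called (adjusted p = 0.0193), but not without *Baf180* KD NT replicate 1 (0.175) or 2 (0.0844) or with DESeq2 (0.0733). With Cu *Blvrb* went from 15.6 and 13.7 to 28.8 and 23.8 CPM in *Baf180* KD cells, while in scr cells it read 9.43 and 10.96 without metal and 11.3 and 8.63 with Cu. The Cu response in *Baf180* KD minus that in scr cells was 0.90 ± 0.237 (adjusted p = 0.0199), and 0.60 (0.201) after GC and length correction. *Blvra* (chr2:127070665-127097084, plus strand), the main biliverdin reductase of adult tissue, ran from 13.5 to 22.1 CPM over all libraries and was called in no comparison of a KD with scr and in no metal response within a line.

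Whether the metal responses differed between a KD line and scr was tested as the difference of the responses. With Cu 5 of 10 members were called in *Baf180* KD cells, against 12.8% of 16524 genes, namely *Ftl1* and *Blvrb* with the larger response there and *Tfrc*, *Slc40a1* and *Ireb2* with the lower. With Zn 7 of 10 were called in *Baf180* KD cells, against 28.7%, and 4 of 10 in *Baf250a* KD cells, against 30.5%. edgeR called 0 of 10 with Cu in *Baf250a* KD cells (background 0.0121%), with Cu in *Brd9* KD cells (0.0363%) and with Zn in *Brd9* KD cells (11.1%), with 4, 5 and 4 members at an unadjusted p under 0.05 and 0, 0 and 1 called by DESeq2. All these differences share the scr libraries, and of the 16 calls 0 were kept after GC and length correction. For *Fth1* the Cu response was not called as different from scr in any KD line (0.37 ± 0.192, 0.31 and 0.43 in *Baf180*, *Baf250a* and *Brd9* KD cells, adjusted p = 0.203, 0.671 and 0.273), so the ferritin rise is not shown to differ between scr and KD cells for this chain.

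The other iron and heme genes measured were a list of 62. Of these, 54 were tested with Cu in *Baf180* KD cells, where 7 were higher and 3 lower (18.5%, against 13.8% of all genes). In *Baf250a* KD cells 56 were tested (2 higher, 0 lower, 3.57% against 1.27%), and in *Brd9* KD cells 53 (2 higher, 0 lower, 3.77% against 0.274%). In scr cells edgeR called 0 of 54, against 0.0333% of all genes. The pair called in all 3 KD lines was *Hmox1*, the heme oxygenase that makes the biliverdin, and *Slc48a1*, which moves heme out of lysosomes. *Hmox1* read 99.5 and 78.0 CPM without metal and 153 and 173 with Cu in *Baf180* KD cells (0.84 ± 0.124, adjusted p = 0.00668), 157 and 139 against 287 and 308 in *Baf250a* KD (1.00 ± 0.0976, adjusted p = 9.98e-07) and 56.5 and 50.8 against 90.7 and 96.7 in *Brd9* KD cells (0.75 ± 0.0958, adjusted p = 0.0238). In scr cells it read 55.6 and 59.9 against 87.8 and 70.8 (0.47 ± 0.118, adjusted p = 0.447). *Slc48a1* rose by 0.67 ± 0.0875, 0.84 ± 0.0931 and 0.72 ± 0.103 in the same 3 lines (adjusted p = 0.00478, 5.26e-06 and 0.0303) and was at 0.18 ± 0.135 in scr cells (adjusted p = 0.622). As a difference of the Cu response from scr, *Hmox1* was not called in *Baf180* KD (0.42, adjusted p = 0.157) or *Brd9* KD cells (0.35, 0.366). Nor was *Slc48a1* (0.54, 0.0614, and 0.61, 0.239). In *Baf250a* KD cells this difference was called for 0 of 58 genes of the list, against 0.0121% of all genes. Over the 4 lines 6 of 58 genes of the list rose with Cu and 0 fell (10.3%, against 7.86% of all genes), with a median of 0.04. Among these were *Hmox1* (0.78 ± 0.0701, adjusted p = 3.87e-07) and *Slc48a1* (0.62 ± 0.0654, adjusted p = 3.5e-06).

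With Zn, 6 of 54 of these genes were higher and 6 lower in scr cells (22.2%, against 17.6% of all genes). In *Baf250a* KD cells 7 of 56 were higher and 1 lower (14.3% against 15.9%). edgeR called 0 of 54 in *Baf180* KD, 0 of 53 in *Brd9* KD and 0 of 58 over the 4 lines. The shares of all genes there were 0.0197%, 0.0334% and 0.284%. In untreated KD cells against scr, 11 of 55 were higher and 15 lower in *Baf180* KD, 14 of 56 higher and 25 lower in *Baf250a* KD, and 7 of 53 higher and 12 lower in *Brd9* KD cells. These are 47.3%, 69.6% and 35.8% of the genes tested, against 41%, 57.8% and 29.2% over all genes. The list medians were −0.05, −0.17 and −0.14 against 0.03, 0.00 and 0.01 over all genes tested.

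For *Fth1*, *Ftl1*, *Tfrc*, *Slc40a1* and *Blvrb*, the genes most like them in pattern were taken by Pearson's r over the 12 condition means of log2 CPM, among 9302 genes with a mean of at least 10 CPM. The closest to *Fth1* were *Sqor*, *C2cd2l* and *Trim16* (r = 0.96 for each), and to *Slc40a1* they were *Hmcn1* (0.96), *Chfr* (0.95) and *Mcc* (0.95). The closest to *Blvrb* were *Map2k3* (0.96), *Pi4ka* (0.95) and *Cgrrf1* (0.94), to *Ftl1* *Cyfip1* (0.95), *Arhgap35* (0.94) and *Anxa7* (0.94), and to *Tfrc* *Tsc22d2* (0.89), *Usp53* (0.89) and *Crls1* (0.87). Among the members, *Fth1* and *Blvrb* were most alike (r = 0.92) and *Aco1* and *Ireb2* least (r = −0.72). Without the shallow library the latter pair was at −0.69, and *Ireb2* and *Blvra* were least alike (−0.73, against −0.69 with it). All these values come from the same 24 libraries, whose depth and GC content trends they share.

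Promoters were searched for 2 short motifs, in RefSeq sequences of GRCm38.p6 from 250 bases before to 50 bases after a gene's start, on both strands. Entries were found for 7 of the 10 members, with 10 promoters in all. The core of the metal response element (TGCACNC or TGCGCNC) occurred in promoters of *Tfrc* and *Aco1*, 2 of the 10, against 25.7% of 32851 promoters, with 2 overlapping matches in *Tfrc*. The antioxidant response element core (TGAC, then any 3 bases, then GC) occurred in 1, that of *Blvra*, against 12.4% of all promoters. The ferritin and *Blvrb* promoters held neither motif in this window.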

How the data were processed

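RNA was depleted of rRNA with RNase H and made into directional libraries. Per the study's methods, the authors aligned reads to mm10 with STAR and deposited raw counts per gene from uniquely mapped read pairs, counted by strand with featureCounts, and versions are not given in the sources used here. Groups were taken from sample titles, since the treatment tag contradicted them for many samples. The 10 members and the gene lists were chosen with earlier results of these data known. Counts of the 6 libraries of a line (metal responses), of the 4 untreated libraries of a KD line and scr, or of all 24 libraries (averages and differences of responses) were filtered with filterByExpr, TMM-scaled and tested with edgeR 4.0.16 (R 4.3.3, limma 3.58.1) in 22 comparisons, with Benjamini-Hochberg adjustment over all genes tested. The named genes were the members, and at most the 2 largest rises and 2 largest falls called per comparison among the 62 other iron genes. Alternatives were DESeq2 1.42.0, RLE size factors, other low-count filters, a replicate block and 1 fit of all 24 libraries. Others were a correction for GC content and length, and leaving out each library. For the correction, each library's trend of log2 CPM on GC content and length (natural splines, 5 degrees of freedom) was added to the offsets of the edgeR fit. Correlations used log2(CPM + 0.5). Total counts ran from 495778 to 75179394 per library and limit the precision of low genes. The study's methods describe 2 independent biological replicates, while nothing in the labels says that replicates were separate cultures. The p-values measure the spread between these samples, and how much of it is technical is not known here. The steps were tested on simulated data, with 200 genes changed by a log2 of 1. In the design of Cu in *Baf180* KD cells (14959 genes) 79% of them were called, and 19 unchanged genes were called as well. The share was 79.5% for untreated *Brd9* KD against scr (27 unchanged called) and 83% for Cu over 4 lines (19). It was lower for Zn in scr cells, at 59.5% (12), and for the Cu response of *Baf180* KD minus that of scr, at 54% (6). Except in the difference of responses, unchanged genes were a clearly larger share of the calls than the adjusted p cutoff of 0.05 implies. Calls in the real data could thus be false more often than their adjusted p states. Changes smaller than a log2 of 1 were not simulated, so how often they are called is not known.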

Additional observations from a re-analysis of the deposited data

Results flagged for a closer look

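The metal responses of several members differed between a KD line and scr by the test of the difference itself (edgeR, adjusted over 16524 genes), given here as KD minus scr on the log2 scale. With Cu in *Baf180* KD cells the differences were 0.63 for *Ftl1* (adjusted p = 0.0345), −0.83 for *Tfrc* (0.0149), −0.69 for *Slc40a1* (0.00901), −0.82 for *Ireb2* (0.0454) and 0.90 for *Blvrb* (0.0199). After GC and length correction they were 0.31, −0.18, −0.34, −0.11 and 0.60, and none was called.

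With Zn in *Baf180* KD cells the differences were 0.55 for *Ftl1* (adjusted p = 0.0339), −0.75 for *Tfrc* (0.00984), −0.56 for *Slc40a1* (0.00671), 0.54 for *Aco1* (0.00854), −1.05 for *Ireb2* (0.00635), 0.64 for *Blvra* (0.0246) and 0.65 for *Blvrb* (0.0481). With the correction they were 0.10, 0.28, −0.08, 0.32, 0.09, 0.46 and 0.22, so that *Tfrc* and *Ireb2* turned sign.

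With Zn in *Baf250a* KD cells, where replicate 2 was shallow, the differences were −0.72 for *Slc40a1* (adjusted p = 0.00175), 0.63 for *Aco1* (0.00444), −1.55 for *Ireb2* (0.000648) and 0.63 for *Blvra* (0.0377). With the correction they were −0.12, 0.47, −0.07 and 0.53. *Blvra* was at −0.01 without *Baf250a* KD Zn replicate 1. The same scr libraries enter all of these differences, and the cause was not tested.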

How the results depend on the processing

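Of 58 member calls in 220 tests, 19 were kept in every alternative, 24 without each library in turn and 33 after GC and length correction. RLE size factors moved no count of calls by over 1.5 times. With the GC and length correction, the same with the block added, called members went from 4 to 7 and 7 in untreated *Baf180* KD against scr, 4 to 8 and 8 in *Baf250a* KD, 2 to 6 and 4 in *Brd9* KD, 5 to 2 and 3 for Cu in *Baf180* KD, 1 to 0 and 0 for Cu in *Baf250a* KD, 0 to 3 and 3 for Cu in *Brd9* KD, 3 to 5 and 5 for Cu over 4 lines and 2 to 0 and 0 for Zn in scr. For the difference of responses from scr they went from 5 to 0 and 0 (Cu, *Baf180* KD), 7 to 0 and 0 (Zn, *Baf180* KD) and 4 to 1 and 1 (Zn, *Baf250a* KD). Shares of all genes called moved as well, here without the block. They became 45.1%, 60.5% and 30.9% in untreated *Baf180*, *Baf250a* and *Brd9* KD against scr. With Cu they were 4.54%, 0.394% and 0.734% in these lines and 8.67% over 4 lines. With Zn they were 0.22% in scr and 8.02% in *Baf250a* KD. For the differences above, in the same order, they were 0.472%, 5.66% and 17.1%. For Zn in *Baf250a* KD cells the 1 call, *Ireb2*, was kept with the replicate block alone (adjusted p = 8.98e-06). It was lost with the GC and length correction without the block (0.671). No member was called (0) with the correction and the block, or in the fit of all 24 libraries. That fit also gave 3 for Cu in *Baf180* KD, 0 for Cu in *Baf250a* KD and 1 for Cu in scr. DESeq2 gave 0 for Cu in *Baf250a* KD, 2 for Cu in *Brd9* KD, 1 for Zn in *Baf180* KD and 1 for the Zn difference of *Brd9* KD. Testing genes with at least 1 count gave 3 for Cu in *Baf250a* KD, 2 for Cu in *Brd9* KD, in scr and for Zn in *Baf180* KD, and 2, 3 and 2 for the differences of *Baf250a* KD (Cu) and *Brd9* KD (Cu, Zn). A mean normalized count of at least 1 gave 2 for Cu in *Brd9* KD.

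With the GC and length correction, with and without the block, signs turned for *Ireb2* (−0.42, −0.21 and −0.33 in untreated *Baf180*, *Baf250a* and *Brd9* KD cells, −0.0571 and, with the block, −0.0570 for Zn in scr, 0.00853 and 0.00718 for the Cu difference of *Brd9* KD, 0.0927 and 0.0932 for the Zn difference of *Baf180* KD and 0.11 for that of *Brd9* KD) and *Tfrc* (0.17 for Cu in *Baf180* KD, −0.39 for Zn in scr, and Zn differences of 0.28 in *Baf180* KD, 0.87 or, with the block, 0.85 in *Baf250a* KD and 0.22 in *Brd9* KD). *Blvra* turned without *Baf250a* KD Zn replicate 1: leaving out each library it ran from −0.24 to 0.46 for Zn in *Baf250a* KD and from −0.0127 to 0.77 for its difference from scr. The cause was not tested.

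Leaving out each library gave 0 to 7, 2 to 5 and 1 to 6 calls in untreated *Baf180*, *Baf250a* and *Brd9* KD cells, and 6 to 8, 4 to 6 and 5 to 6 over 3 treatments. With Cu it gave 0 to 1 in scr, 0 to 5, 0 to 1 and 0 to 0 in the KD lines and 3 to 4 over 4 lines. With Zn it gave 0 to 2 in scr, 0 to 0, 1 to 2 and 0 to 0 in the KD lines and 0 to 0 over 4 lines. For the differences it gave 0 to 7, 0 to 0 and 0 to 0 with Cu and 1 to 8, 3 to 5 and 0 to 3 with Zn. A lone remaining library was assumed to vary like the other group.

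Per-length levels of *Fth1*, *Slc11a2* and *Fech* moved by over 1 SD with the longest transcript, a choice made after seeing the data. Replicate numbers were shared by label only: deviations of same-numbered libraries had correlations of mixed sign (median 0.074 over 66 pairs). The replicate block kept 54 of 58 calls and moved the count to 2 in untreated *Baf180* KD, 3 for Cu in *Baf250a* KD, 2 for Zn in *Baf180* KD and 0 for Zn in scr. With 2 libraries a group, differences smaller than those called could be missed, and the 20 counts of *Ireb2* in the shallow library show where depth limits a value.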
